A study of Mus musculus with 6 samples.

Results

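ESRRB binding was described at 42 genes of the TCA cycle, of pyruvate entry into it, of mitochondrial fatty acid oxidation and of the carriers that serve them, out of 21896 protein-coding genes annotated on mm10. The genes were chosen by pathway membership, and a gene was counted as having a region when a ChIP-seq summit lay within 10 kb of its span. ESRRB was pulled down from E14 cells, a blastocyst-derived mouse embryonic stem cell line, in 3 conditions. Cells in the naive state were grown in N2B27 medium with 2iL, which is 3 µM CHIR99021 (an inhibitor of GSK3), 1 µM PD0325901 (an inhibitor of MEK) and the cytokine LIF. The other cells were collected 48 h or 96 h after 2iL had been replaced with N2B27 alone, so all of them shared the cell line, the basal medium and the antibody. Each condition had 1 antibody library and 1 input library, and only the 3 antibody libraries were analysed here, as peak lists.

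ESRRB is an orphan nuclear receptor of the estrogen-related receptor family, which binds single extended sites around the core AAGGTCA and is part of the naive pluripotency network. Its relatives ESRRA and ESRRG are known in mouse heart, muscle and brown fat for binding genes of mitochondrial respiration, the TCA cycle and fatty acid oxidation. The TCA cycle oxidises acetyl-CoA that comes from pyruvate or from fatty acids, and both routes pass their electrons to the respiratory chain. Peak lists measure where the receptor was found and not how strongly a gene was expressed, so the cell type label could not be checked against marker genes.

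Of the 42 genes, 29 had an ESRRB region inside the 10 kb limit in the 2iL library, 24 had one at 48 h, and 23 at 96 h. These are 69.0% (exact 95% interval 52.9 to 82.4), 57.1% (41.0 to 72.3) and 54.8% (38.7 to 70.2) of the genes, against 31.9%, 27.2% and 20.1% of all protein-coding genes. In each library the share of all genes lay below the interval of the pathway genes. The regions numbered 39 of 13767 in 2iL, 35 of 10970 at 48 h and 28 of 7018 at 96 h. A region within 10 kb was called in all 3 libraries at 19 genes, in 2iL alone at 5, in 2iL and 1 later library at 5, in later libraries alone at 3, and in none at 10. The same patterns over all protein-coding genes are not given here, so these counts cannot be set against them. Within 50 kb the counts were 36, 34 and 32 of 42 genes, against 56%, 49.9% and 39.6% of all protein-coding genes. When every list was cut to its 7018 strongest regions, 17, 16 and 23 of the 42 genes had one, against 18.8%, 18.4% and 20.1% of all protein-coding genes, so the order of the libraries was not kept. Intervals cover counting error only, and with no replicate of any condition no test between conditions was possible.

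**Figure D1:**
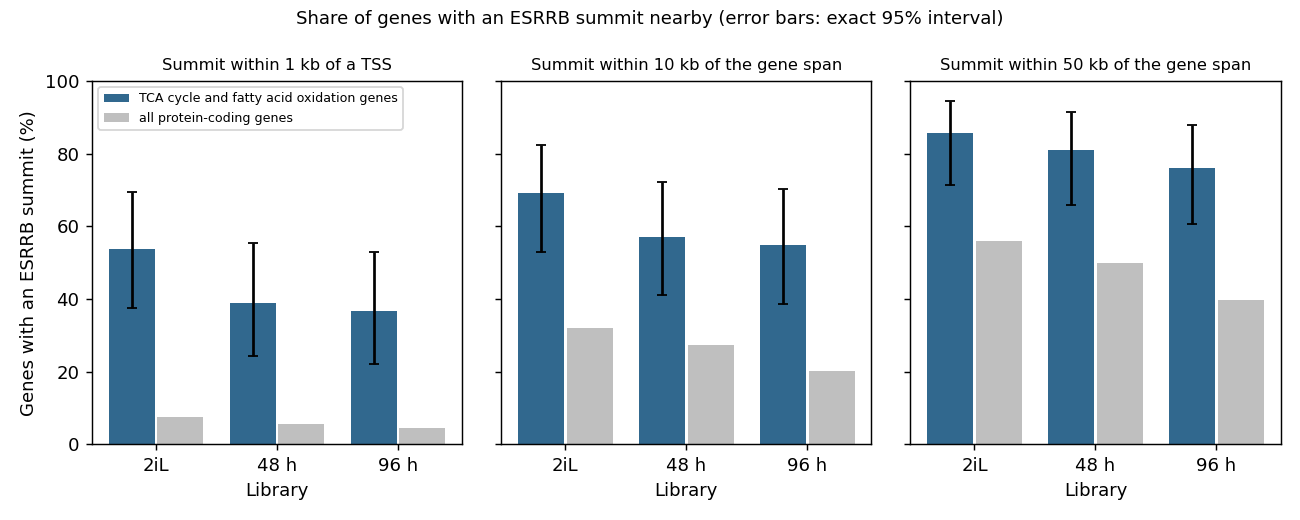
Percentage of genes with an ESRRB summit within 1 kb of a transcription start, 10 kb of the gene span or 50 kb of it, in each library. Blue bars are the TCA cycle and fatty acid oxidation genes with exact 95% intervals, grey bars all protein-coding genes, and the gap is widest in ratio at transcription starts (53.7% against 7.4% in 2iL).

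Many of the summits lay at transcription starts. Of the 41 genes whose start is given in the promoter table used here, 22 (53.7%, 37.4 to 69.3) had a 2iL summit within 1 kb of a start, against 7.4% of 17491 protein-coding genes. At 48 h there were 16 (39.0%, 24.2 to 55.5) against 5.53%, and at 96 h 15 (36.6%, 22.1 to 53.1) against 4.37%. The start of Idh3a is not used here, so its regions were counted as not at a start. The same 15 genes had such a summit in all 3 libraries: Mpc1, Pdk1, Pdk4, Idh3b, Ogdh, Sucla2, Fh1, Cpt1a, Acads, Hadha, Hadhb, Etfa, Slc25a4, Slc25a5 and Got2. Another 7 genes had one in 2iL alone, and Dlst had one at 48 h alone. The shares of all protein-coding genes with each of these patterns are not given here, so the patterns cannot be set against them.

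Nearest summits fell mostly just inside the gene in 2iL, with a median position of 132.5 bp downstream of the start, and 13 of the 22 lay between 50 and 400 bp into the gene. Among all 1295 protein-coding genes with a 2iL summit within 1 kb of a start the median was 41 bp and 40.3% lay in that stretch, against 59.1% of the pathway genes. At 48 h 6 of 16 genes and at 96 h 7 of 15 had their nearest summit in it, against 35.4% and 32.7% of all genes. Upstream summits were those of Pdk4 (349 bp before the start in 2iL), Mpc1 (324 bp), Acadm (292 bp), Pdk1 (257 bp), Slc25a4 (134 bp), Sucla2 (132 bp), Got2 (74 bp) and Ogdh (52 bp before an internal start).

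**Figure D2:**
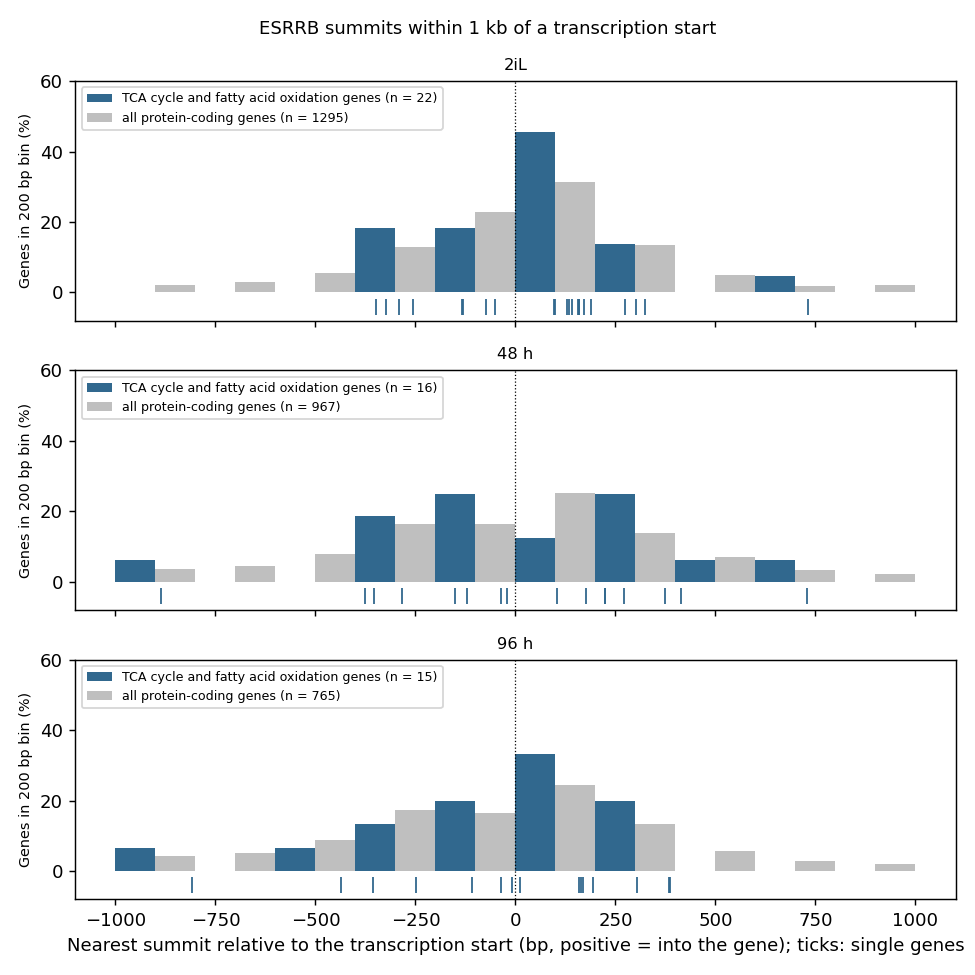
Position of the summit nearest to a transcription start, in bp, for genes with a summit within 1 kb, in 200 bp bins drawn as side-by-side bars of 100 bp. Blue bars and ticks are the TCA cycle and fatty acid oxidation genes (22, 16 and 15 genes from top to bottom), grey bars all protein-coding genes, and in 2iL the bin from 0 to 200 bp holds the most genes in both sets.

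Promoter sequence came from RefSeq on GRCm38.p6, as windows of 250 bases before and 50 after a start, and 50 such windows matched the 41 genes. The sequences shown are the 4 that hold the receptor's core with a 2iL summit within 50 bp of it, and for contrast Slc25a4, which has a summit inside the window in every library and no core. At Got2 and Sucla2 that 2iL summit is not the highest of its region. The Pdk1 and Slc25a5 windows, with a summit inside in 1 library each and no core, are not printed. In the Ogdh and Acadm lines capitals mark AAGGTCA, and in the Got2 and Sucla2 lines the shorter core AGGTCA, each on either strand (TGACCTT and TGACCT are the reverse strand). The Slc25a4 window holds neither.
Ogdh, internal start, chr11:6291920-6292219, plus strand: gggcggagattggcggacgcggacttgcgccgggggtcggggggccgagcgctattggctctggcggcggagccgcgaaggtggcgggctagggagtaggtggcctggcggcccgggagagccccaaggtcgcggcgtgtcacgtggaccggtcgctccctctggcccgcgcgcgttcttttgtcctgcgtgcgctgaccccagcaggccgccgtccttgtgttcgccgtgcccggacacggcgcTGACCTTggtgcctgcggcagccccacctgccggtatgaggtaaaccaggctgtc
Got2, chr8:95888352-95888651, minus strand: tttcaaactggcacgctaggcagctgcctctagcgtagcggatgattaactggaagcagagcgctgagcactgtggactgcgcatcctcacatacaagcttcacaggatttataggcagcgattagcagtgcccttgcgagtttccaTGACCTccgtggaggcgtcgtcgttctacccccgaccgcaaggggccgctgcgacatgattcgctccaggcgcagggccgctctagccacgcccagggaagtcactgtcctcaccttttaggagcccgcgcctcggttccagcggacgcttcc
Slc25a4, chr8:46211013-46211312, minus strand: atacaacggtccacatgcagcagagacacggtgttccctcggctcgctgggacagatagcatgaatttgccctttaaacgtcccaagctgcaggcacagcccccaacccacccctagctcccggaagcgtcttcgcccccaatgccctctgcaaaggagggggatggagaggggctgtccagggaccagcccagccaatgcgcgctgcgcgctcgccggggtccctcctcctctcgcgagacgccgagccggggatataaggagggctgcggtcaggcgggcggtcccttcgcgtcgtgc
Acadm, upstream end of the window, chr3:153944856-153944893, minus strand: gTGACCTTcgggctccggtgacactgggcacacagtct
Sucla2, chr14:73552597-73552662, plus strand: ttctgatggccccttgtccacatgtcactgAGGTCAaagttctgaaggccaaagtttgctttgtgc

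At the internal Ogdh start the centre of AAGGTCA lay 50 bp from the 2iL summit, 20 bp from that of 48 h and 35 bp from that of 96 h. At Acadm it lay 46 bp from the 2iL summit, which is itself upstream of the window. At Got2 the centre of AGGTCA lay 26.5 bp from the 2iL summit nearest the start, 65.5 bp from that of 48 h and 91.5 bp from that of 96 h. At Sucla2 these distances were 24.5, 380.5 and 168.5 bp. The highest 2iL summits of these regions lay farther from the core, 736 bp into Got2 and 997 bp into Sucla2. Of the other genes with a 2iL start region and AGGTCA in a window, Fh1, Mpc1 and Cpt1a had it 375.5, 749.5 and 823.5 bp from the 2iL summit, so the core was near the summit at some of these genes and far from it at others. AAGGTCA was found in 2 of 50 windows of the pathway genes (4.0%), against 4.08% of 21262 windows of protein-coding genes and 4.72% of all 32851. AGGTCA, which every AAGGTCA contains, was found in 10 of 50 windows (20%), against 14.7% of protein-coding windows and 16.3% of all. TNAAGGTCA and TCAAGGTCA were in none of the 50, and in 1.03% and 0.334% of protein-coding windows. Among protein-coding windows, 9.92% of those with AAGGTCA and 1.82% of the others had the nearest 2iL summit inside. Only 4 of the 41 pathway genes had their nearest 2iL summit inside a window, so most of the bound sequence was not searched.

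The promoter windows of these genes had a median GC content of 61.2%, against 56.3% for protein-coding windows. Starts with more GC had summits more often in general, from 2.12% of the 5481 protein-coding windows of 12.3% to 48.3% GC to 11.6% of the 5189 windows of 65% GC or more in 2iL. The windows of 56.7% to 64.7% GC held 30 of the 50 pathway windows, and 17 of these had a 2iL summit within 1 kb of the start, against 8.97% of protein-coding windows of that GC content. The part of GC content in the whole difference was not tested.

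**Figure D3:**
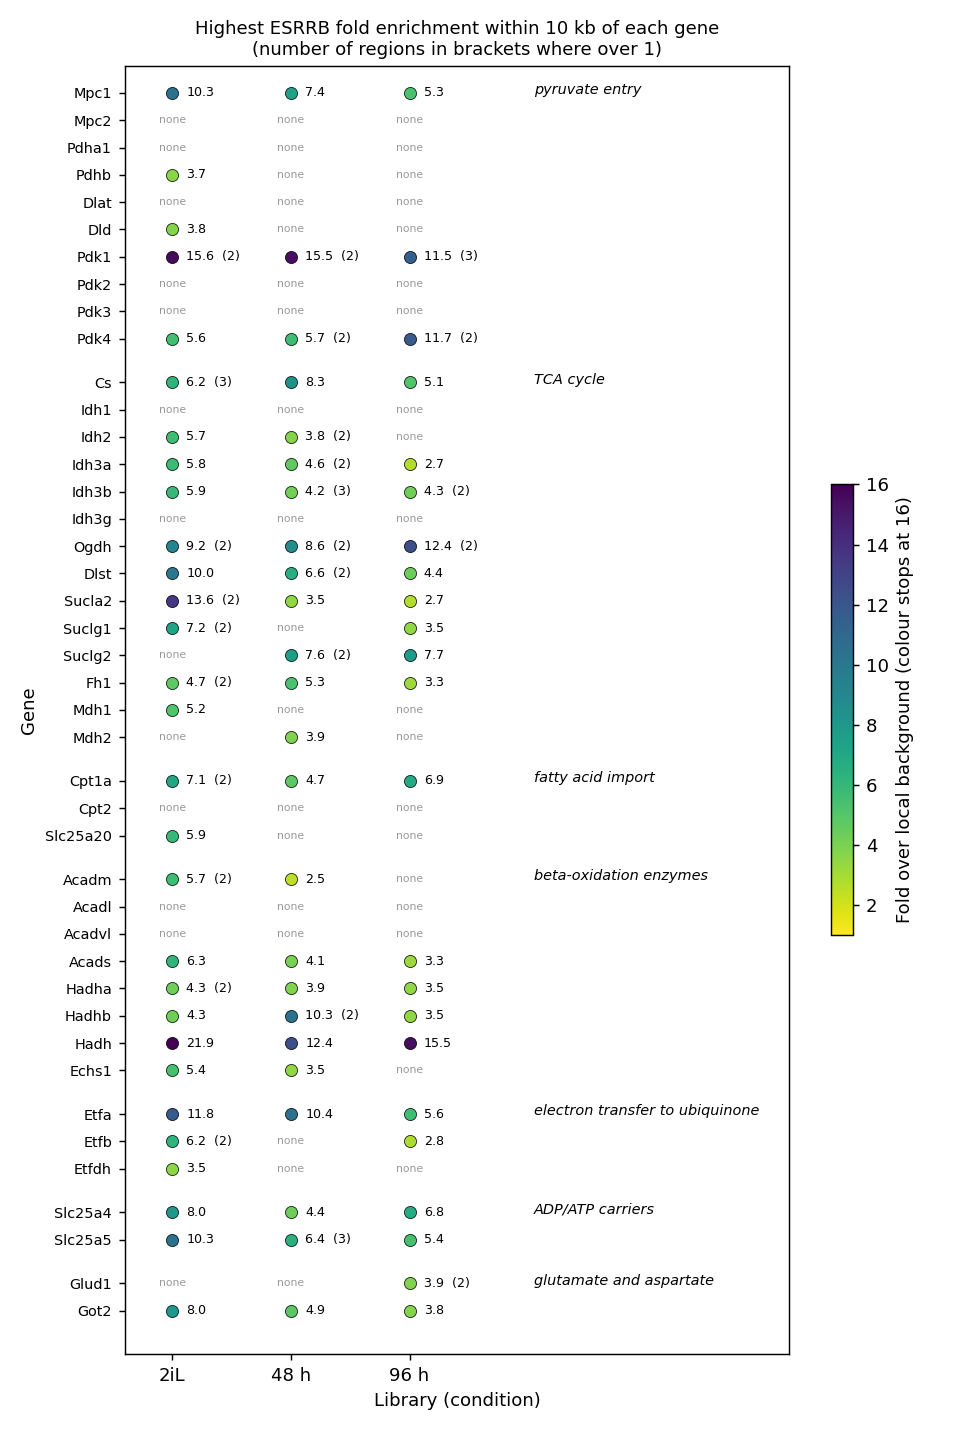
Highest fold enrichment (summit reads over local background) among ESRRB regions within 10 kb of each gene, by library, with genes grouped by role. A point is a gene with a region, its number is the fold, brackets give the number of regions where above 1, and Hadh in 2iL (21.9) is the highest.

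Folds below are the authors' ratio of reads at the highest summit of a region to the local background of the same library, and the interval after a fold covers the counting of those reads. They are set side by side and are not a measured change, since each library has its own depth: the background floor at 48 h was 1.60 times and at 96 h 1.16 times that of 2iL. A start region had a summit within 1 kb of a transcription start, which need not be the highest summit, where the fold is taken. A region that was not called may hold ESRRB below the calling threshold.

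Pyruvate enters mitochondria through the carrier MPC1-MPC2 and is turned into acetyl-CoA by pyruvate dehydrogenase, which PDK kinases switch off. The kinase gene Pdk1 carried the strongest of these regions in 2iL and at 48 h, 5475 bp upstream of the gene at its nearest summit (chromosome 2, 71866577 to 71868180 in 2iL). The 2iL fold of 15.6 (13.5 to 18.0) stood beside 15.5 (13.6 to 17.5) at 48 h and 11.5 (9.61 to 13.6) at 96 h, within the strongest 10% of regions of every library. A weaker region at the Pdk1 start had folds of 4.43, 4.38 and 4.79, and a region 240 bp past the far end was called at 96 h alone (4.31).

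Pdk4, a kinase gene that fasting induces in many tissues, had its highest fold at 96 h, the strongest pyruvate entry region of that library. Its region 349 bp upstream of the start (chromosome 6, 5496022 to 5497220 in 2iL) had a fold of 5.57 (4.56 to 6.73) in 2iL, 5.67 (4.81 to 6.63) at 48 h and 11.7 (9.99 to 13.7) at 96 h. The reads behind these folds were 104, 153 and 157, and the 96 h interval lay above both others. A second region 888 bp beyond the other end of the gene was called at 48 h (3.43) and 96 h (4.11) and not in 2iL.

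Mpc1 had 1 region upstream of its start in each library, with folds of 10.3 (8.35 to 12.6) in 2iL, 7.39 (6.13 to 8.84) at 48 h and 5.30 (4.10 to 6.75) at 96 h. Pdhb, for the E1 beta subunit, and Dld, for the E3 subunit that pyruvate and 2-oxoglutarate dehydrogenase share, had weak start regions in 2iL alone (folds 3.66 and 3.78). Mpc2, Pdha1 (E1 alpha), Dlat (E2), Pdk2 and Pdk3 had no region within 10 kb in any library. Of the 10 pyruvate entry genes, regions were thus called at 5 in 2iL and 3 at each later time. The shares of all protein-coding genes were 31.9% in 2iL, 27.2% at 48 h and 20.1% at 96 h.

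In the TCA cycle 10 of 14 genes had a region in 2iL, 10 had one at 48 h and 9 at 96 h. The shares of all protein-coding genes were 31.9%, 27.2% and 20.1%. Ogdh, which encodes the E1 subunit of 2-oxoglutarate dehydrogenase, had a region at its internal start and another 8246 bp past its end in all 3 libraries. The start region (chromosome 11, 6291477 to 6293234 in 2iL) had folds of 9.21 (7.79 to 10.8) in 2iL, 7.07 (6.08 to 8.17) at 48 h and 4.77 (3.95 to 5.70) at 96 h. The downstream region (6366774 to 6368677 in 2iL) had folds of 5.89 (4.55 to 7.52), 8.63 (7.42 to 9.98) and 12.4 (10.3 to 14.8). The order of the libraries was thus opposite at the 2 regions of this gene, and the 2iL and 96 h intervals did not overlap at either.

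Cs, for citrate synthase, which makes the first product of the cycle, had a region 1865 bp upstream of its span in every library (chromosome 10, 128335545 to 128336281 in 2iL). The highest fold was that of 48 h, 8.33 (6.80 to 10.1), with 4.33 (3.27 to 5.62) in 2iL and 5.14 (3.96 to 6.56) at 96 h. A stronger 2iL region 6843 bp past the end (fold 6.22) lay 161 bp from the start of Coq10a, a coenzyme Q gene. It was called at neither later time, and neither was another 2iL region 2844 bp past the end (4.50), also nearest Coq10a.

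The NAD-dependent isocitrate dehydrogenase genes Idh3a and Idh3b had a region in all 3 libraries. At Idh3a the folds were 5.77 (4.33 to 7.55) in 2iL, 4.64 (3.80 to 5.62) at 48 h and 2.74 (2.04 to 3.61) at 96 h, and at the Idh3b start they were 5.91, 4.21 and 4.34. Idh3a had a further weak region at 48 h alone (1.97). Weak regions 4348 bp and 43 bp from Idh3b that were called later and not in 2iL (folds 2.82 to 3.98) lay nearest Nop56. Idh2, the mitochondrial NADP-dependent enzyme, had a region 1148 bp from its span in 2iL (5.68) and at 48 h (3.49). Another lay 8321 bp away at 48 h alone (3.76). For both regions Zfp710 was the nearest gene span, while the Idh2 start was the nearest start. Idh3g and the cytosolic Idh1 had none.

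Succinyl-CoA synthetase joins an alpha subunit (SUCLG1) to an ATP-forming (SUCLA2) or GTP-forming (SUCLG2) beta subunit, and its 3 genes differed. Sucla2 had a region at its start in all 3 libraries, with folds of 5.48 (3.90 to 7.5), 3.46 (2.73 to 4.33) and 2.73 (2.02 to 3.62). In 2iL that fold belongs to a summit 997 bp into the gene, not to the summit 132 bp before the start. Sucla2 also had a region inside the gene in 2iL alone (chromosome 14, 73574861 to 73576446, fold 13.6, 11.1 to 16.5), the highest fold among the regions here that were called at neither later time. Suclg1 had a start region in 2iL alone (3.64) and one inside the gene in 2iL (7.21) and at 96 h (3.48). Suclg2 had none in 2iL, 2 regions inside the gene at 48 h (7.59 and 6.12) and 1 of them at 96 h (7.74, 5.82 to 10.1).

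The remaining cycle genes had weaker start regions or regions nearer to other genes. Fh1, for fumarase, had a start region with folds of 4.72, 5.31 and 3.27, and a weak region inside the gene in 2iL alone (3.22). Mdh1, the cytosolic malate dehydrogenase gene, had a start region in 2iL alone (5.15). Mitochondrial Mdh2 had a single region, at 48 h (3.90). That region lay 9844 bp away, the farthest inside the 10 kb limit, and was nearest Srrm3. Dlst, for the E2 subunit of 2-oxoglutarate dehydrogenase, had a start region at 48 h alone (3.08), and a region 6544 bp past its end in 2iL (10.0) and at 48 h (6.58). That region and another of 96 h alone, 3774 bp past the end (4.39), lay nearest Rps6kl1. Just outside the limit, the nearest summits were at -10846 bp from the Idh3g start in 2iL and -10974 bp from that of Etfb at 48 h.

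Fatty acids enter mitochondria as carnitine esters, through CPT1, the carrier SLC25A20 and CPT2. Cpt1a, for the rate-limiting first step, had a region within 1 kb of an internal start (chromosome 19, 3322853 to 3324524 in 2iL). Its folds were 7.06 (5.71 to 8.63) in 2iL, 4.74 (3.86 to 5.76) at 48 h and 6.93 (5.33 to 8.87) at 96 h. Another region, 503 bp before the gene span and 1478 bp before that internal start, was called in 2iL alone (4.85) and is not counted as a start region. The only Slc25a20 region, 5640 bp upstream and nearer Arih2, was called in 2iL alone (5.87), and Cpt2 had none even within 50 kb.

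Among the 8 enzymes of beta-oxidation, 6 had a region in 2iL, 6 had one at 48 h and 4 at 96 h. The shares of all protein-coding genes were 31.9%, 27.2% and 20.1%. Hadh, for the dehydrogenase of short and medium chains, held the highest fold of the 42 genes in 2iL and at 96 h, inside the gene and 25605 bp from its start (chromosome 3, 131245715 to 131248172 in 2iL). The fold of 21.9 (18.9 to 25.1) in 2iL stood beside 12.4 (10.8 to 14.1) at 48 h and 15.5 (13.2 to 18.1) at 96 h, and the region ranked 62 of 13767, 472 of 10970 and 158 of 7018. No summit was within 1 kb of the Hadh start.

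Hadha and Hadhb encode the subunits of the trifunctional protein, are neighbours that start close together, and share 1 region over their starts (chromosome 5, 30154375 to 30155826 in 2iL). Its folds were 4.29, 3.89 and 3.49, with overlapping intervals (3.37 to 5.39, 3.12 to 4.80 and 2.67 to 4.50). A further region inside Hadhb reached a fold of 10.3 (8.55 to 12.4) at 48 h and was called in no other library. Past the end of Hadha a 2iL region of fold 2.89 lay nearest the span of Garem2. Acads, for short-chain acyl-CoA dehydrogenase, had a start region with folds of 6.27, 4.10 and 3.25.

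Acadm, for the medium-chain enzyme and a known target of estrogen-related receptors in heart, had its start region in 2iL alone (chromosome 3, 153944628 to 153945231, fold 5.69, 4.26 to 7.44). A weak region 1189 bp past its end was called at 48 h (2.51), and a 2iL region 8790 bp past it (3.87) lay nearest Rabggtb. The Echs1 region, called in 2iL (5.43) and at 48 h (3.49), lay 89 bp from the start of Fuom in 2iL, so it is counted here by distance only. Acadl and Acadvl, the long-chain and very-long-chain genes, had none.

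Electrons from the acyl-CoA dehydrogenases pass through ETF and its oxidoreductase to ubiquinone. All 3 genes of this step had start regions in 2iL, against 7.4% of all protein-coding genes. Etfa (chromosome 9, 55511327 to 55512303 in 2iL) had folds of 11.8 (9.86 to 13.9) in 2iL, 10.4 (9.12 to 11.9) at 48 h and 5.58 (4.54 to 6.80) at 96 h, the highest start region of the 42 genes in 2iL. Those of Etfb (4.39) and Etfdh (3.54) were called in 2iL alone, as was a region inside Etfb (6.24). At 96 h the only Etfb region lay 7527 bp past its end (2.82), nearest Vsig10l.

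The ADP/ATP carrier genes Slc25a4 and Slc25a5, which export ATP from mitochondria, had broad regions over their starts in all 3 libraries. Slc25a4 had folds of 8.03 (6.55 to 9.74) in 2iL, 4.37 (3.70 to 5.13) at 48 h and 6.75 (5.65 to 8.0) at 96 h. Slc25a5 had 10.3 (8.13 to 13.0), 6.42 (5.32 to 7.69) and 5.42 (4.23 to 6.83), and 2 more regions past its end at 48 h alone (4.73 and 3.32). Got2, the mitochondrial aspartate aminotransferase gene of the malate-aspartate shuttle, had a start region with folds of 8.02 (6.37 to 9.98), 4.86 (4.09 to 5.72) and 3.76 (2.87 to 4.83). These Got2 folds belong to summits 736, 701 and 711 bp into the gene, not to the summits nearest the start. Glud1, for glutamate dehydrogenase, had 2 weak regions at 96 h alone (3.92 and 1.45), both nearest Shld2. The weaker rested on 12 reads, with an interval of 0.805 to 2.45, so enrichment over background was not shown there.

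Merging overlapping regions of the 3 libraries gave 57 loci, of which 19 were called in all 3 and 16 in 2iL alone. Of the rest, 3 were called in 2iL and at 48 h, 1 in 2iL and at 96 h, 3 at 48 h and 96 h without 2iL, 10 only at 48 h and 5 only at 96 h. For the loci not called in 2iL, the matching shares over all regions are not given here. Of the 2iL regions near these genes, 19 (48.7%) were called at both later times, against 31.3% of all 2iL regions. Another 16 (41.0%) were called at neither, against 45.6%. A further 3 (7.69%) were called at 48 h but not 96 h, against 19.4%, and 1 (2.56%) at 96 h but not 48 h, against 3.70%. Of the 39 regions of 2iL, 22 (56.4%, 39.6 to 72.2) were also called at 48 h, against 50.7% of all 2iL regions and 51.4% of those near protein-coding genes, and 20 (51.3%, 34.8 to 67.6) at 96 h, against 35% and 35.7%. Both intervals hold the share of all regions.

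Sharing between libraries was also counted separately for start regions and the others. The Idh3a regions were counted with the others because the start of that gene is not used. Of the 21 start regions of 2iL, 14 (66.7%, 43.0 to 85.4) were called at 48 h and the same number at 96 h, against 57.2% and 46.2% of all 2iL regions within 1 kb of a start. All 14 start regions of 96 h (76.8% to 100%) and 14 of the 15 of 48 h (93.3%, 68.1 to 99.8) were also called in 2iL, against 76.1% and 73.7%. Among the 18 other 2iL regions, 8 (44.4%, 21.5 to 69.2) recurred at 48 h and 6 (33.3%, 13.3 to 59.0) at 96 h, against 50.6% and 34.1%, and these intervals overlapped those of the start regions. In the other direction, 8 of 20 at 48 h (40%, 19.1 to 63.9) and 6 of 14 at 96 h (42.9%, 17.7 to 71.1) away from starts had been called in 2iL, against 63% and 69.1%. Over all regions near the 42 genes these shares were 22 of 35 (62.9%) at 48 h and 20 of 28 (71.4%) at 96 h, against 64.3% and 70.2% of those near protein-coding genes. For the later regions also called in 2iL the intervals of start and other regions did not overlap at either time. The difference itself was not tested, and the regions were not matched on strength.

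The 7 start regions called in 2iL alone, at Pdhb, Dld, Suclg1, Mdh1, Acadm, Etfb and Etfdh, had 2iL folds of 3.54 to 5.69, and the others ranged from 4.29 to 11.8. The ranges overlapped: the fold of Acadm (5.69) was above those of Pdk4, Sucla2, Fh1, Pdk1 and Hadha-Hadhb, which were called throughout, that of Mdh1 (5.15) above the last 3 of these, and that of Etfb (4.39) above Hadha-Hadhb.

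**Figure D4:**
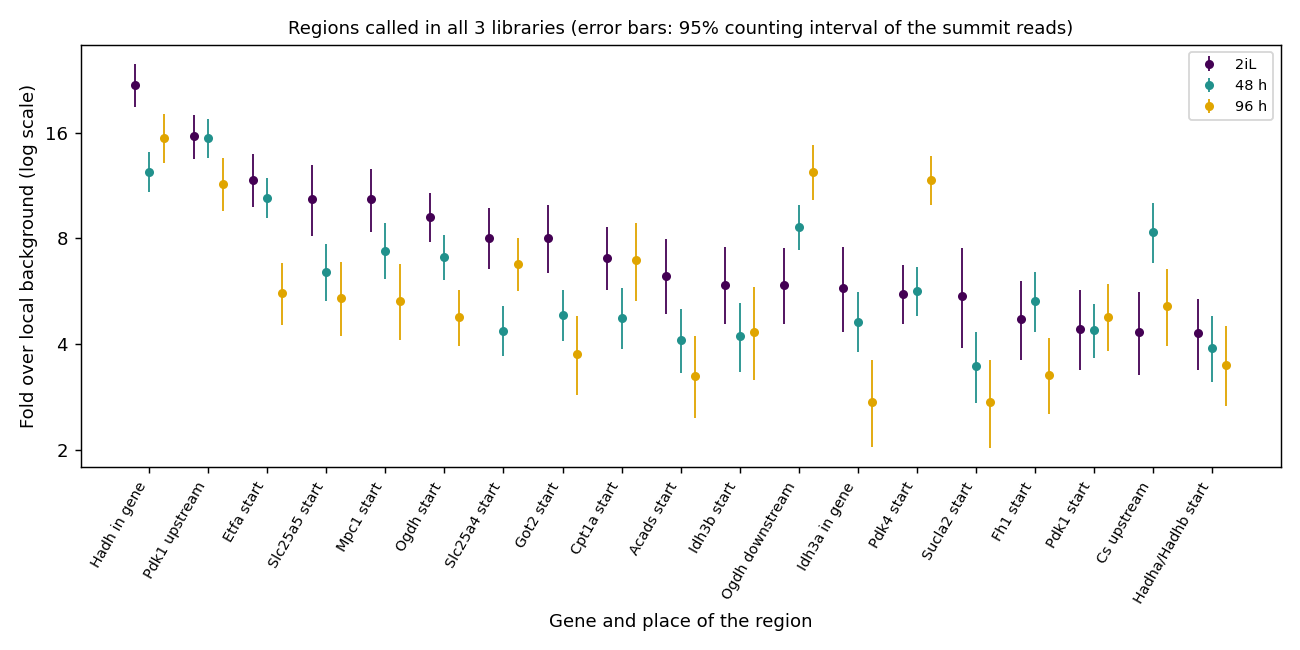
Fold over local background, on a log scale, of the 19 regions called in all 3 libraries, ordered by the 2iL fold, with the 95% counting interval of the summit reads. Start means within 1 kb of a transcription start, and Idh3a, whose start is not used, is marked as in gene. Only Ogdh downstream and Pdk4 start have a 96 h interval above that of 2iL.

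In these 19 regions the 96 h fold was below the 2iL fold at 15, against 72.3% of the 4313 regions of all genes found in every library, and the 48 h fold was below it at 15 as well, against 61.4%. The 96 h interval lay wholly below that of 2iL at 9 of 19 (47.4%), against 28.9% of 4288 such regions with intervals, and wholly above it at 2 (10.5%), against 5.39%. At 48 h it lay below at 4 (21.1%), against 22.5%, and above only at Cs upstream (5.26%), against 9.35%. By rank within its library the median of the 19 stood at the 55.9 percentile in 2iL, 56.1 at 48 h and 56.1 at 96 h, against 71.3, 74.5 and 64.9 for all regions called in the 3 libraries. The 14 start regions had medians at the 61.0, 46.4 and 48.5 percentile. The 5 others, upstream of Cs and Pdk1, downstream of Ogdh and inside Hadh and Idh3a, had them at 50.2, 85.7 and 94.0. Idh3a stands among these because its start is not used, though its region covers an end of the gene span in 2iL and at 48 h. Its percentiles were 47.9, 42.9 and 4.45. Those of the rest ran from 17.8 to 99.6 in 2iL, from 84.4 to 98.2 at 48 h and from 56.1 to 97.8 at 96 h. Ranks come from lists of different length.

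As a set, the regions near these genes had folds slightly below those of all regions near protein-coding genes. The medians were 5.69, 4.64 and 4.36 in the 3 libraries in order of time, against 5.79, 4.87 and 4.74. Start regions made up 53.8%, 42.9% and 50% of them, against 13.4%, 12.6% and 15.2% of all regions near protein-coding genes. By distance to the gene span, another protein-coding gene was nearer than any of the 42 at 16 of the 57 loci. By distance to a start, a start of the 42 was nearest at 39 of the 57, with the Idh3a start not used. The matching shares for other genes are not given here.

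Of 69 other genes of the same pathways and their regulators, 31 had a region within 10 kb in 2iL, the same number at 48 h, and 25 after 96 h. These are 44.9%, 44.9% and 36.2%, against 31.9%, 27.2% and 20.1% of all protein-coding genes. By role in 2iL, 7 of 9 TCA cycle genes (77.8%), 6 of 9 carriers (66.7%), 3 of 5 glutamate and aspartate genes (60%) and 5 of 10 regulators (50%) had one. Fatty acid activation and import, with 4 of 10 genes (40%), was nearer the 31.9% of all genes, and pyruvate entry, with 3 of 11 (27.3%), and beta-oxidation, with 3 of 15 (20%), were below it. High folds were at Slc25a13, an aspartate-glutamate carrier gene (19.7 in 2iL, with 14.8 at 48 h and 12.6 at 96 h), and at Sdha, for the succinate dehydrogenase flavoprotein (14.9, 6.58 and 8.85). The phosphate carrier gene Slc25a3 had 13.9, 7.56 and 5.76, and the receptor gene Esrra had 13.2, 9.50 and 9.51.

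Regions were called in all 3 libraries at 20 of these 69 genes, in none at 29, and in 1 or 2 libraries at 20. For these counts too, the matching shares of all protein-coding genes are not given here. Among those called in 2iL alone were Me2, Aco1, Acsl1, Acsl3 and Slc25a21, with highest folds of 3.93 (Slc25a21) to 11.6 (Acsl3). Only at 48 h were Dhtkd1, Eci1, Ech1, Slc25a1, Gpt2 and Nrf1 (3.09 to 3.59), and only at 96 h Pcx (2.63). Acad11, Oat and Ppard had regions in 2iL and at 48 h, Pdpr and Ppara in 2iL and at 96 h, while Slc25a11 and Perm1 had them at 48 h and 96 h.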

How the data were processed

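The deposited data used here were 3 narrowPeak lists, 1 for each ESRRB antibody library, and the 3 input libraries were not used here. Chromatin was fixed with 1% formaldehyde, per the labels' protocols. Per the submitters' processing notes the tools were bcl2fastq 2.20.0.422, BWA, SAMtools, Picard and MACS2, with build mm10. Their roles, the other versions and any threshold used in calling are not given in the sources here. The authors deposited a fold (ratio of summit reads to local background), a p-value and a q-value as −log10, a score of at most 1000 that was not used, and other columns with the interval and its summit offset.

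Each unique interval was taken once, as a region, at the fold of whichever of its summits was highest, and it was near a gene when any summit lay within 10 kb of the span in the RefSeq annotation of GRCm38.p6 (50 kb as a check). All 42 genes and the 69 other pathway genes matched by symbol. Starts came from RefSeq promoter windows. Summit reads were solved from fold and p with a pseudocount of 1, and were whole within 0.05 for 100% of the 13746, 10923 and 7007 regions where this could be done. Their medians were 51, 67 and 45 for 2iL, 48 h and 96 h. The total depth is unknown. An overlap of 1 bp or more made regions of different libraries shared. Shares carry exact Clopper-Pearson 95% intervals and folds exact Poisson intervals with the background held fixed; both cover counting error only. No p-value was computed, since each condition had 1 library. Computation used Python 3.11.15, pandas 2.3.3 and scipy 1.17.1, and the overlap, window and read-solving code was tested on simulated data. Every gene of the 42 was named, with its strongest region. The other pathway genes named were the 5 of highest fold and those called in 1 or 2 libraries, except for some that are not reported here. The genes, lists and rules were chosen with earlier results of these data known.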

Additional observations from a re-analysis of the deposited data

How the results depend on the processing

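Counts of the 42 genes with a region kept within 1.5 times of the value given with a q of 1e-05 or less, with the highest summit only, with a region counted for its nearest gene only, and with windows of 1 kb and 50 kb. With summits inside the gene span only, the genes with a region were 15 at 48 h and 14 at 96 h, and the regions numbered 23, 18 and 14 for 2iL, 48 h and 96 h. The share of all protein-coding genes was then 16.7% at 48 h and 11.6% at 96 h. With each list shortened to its 7018 strongest regions by fold, 17 genes in 2iL had a region, with 18 regions there and 20 at 48 h, and 13 of those 18 (72.2%, 46.5 to 90.3) were called at 96 h, against 47.8% of all 2iL regions under the same limit. The region counts became 74, 63 and 48 within 50 kb, and 23 at 48 h within 1 kb. Over all annotated genes in place of protein-coding ones the background shares were 23.1%, 19.8% and 14.2% for the 3 libraries in order of time. Windows of 500 and 2000 bp around a start and the AGGTCA motif were chosen after seeing the data, and both windows kept the start counts within 1.5 times. No paired analysis was possible because each condition had 1 library and no test was made. Summit reads of about 50 limit the precision of a fold, and weak regions may be missed where depth is lower.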
